A study of Homo sapiens with 12 samples.

Results

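The endothelin system was examined as 7 genes of the 60649 in the count table: the ligand genes EDN1, EDN2, and EDN3, the receptor genes EDNRA and EDNRB, and the converting enzyme genes ECE1 and ECE2. Each was taken as the row that carried its symbol, across all 12 libraries. They were chosen by their measured levels, which were already known to differ between the cell lines, so levels in the lines, and counts of genes past the thresholds between them, are a description that supports nothing, and p-values are given only for comparisons within a line or between treatment effects. All 7 genes were in the table, and 6 of them passed the filter on low counts, ECE2 being the exception.

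RNA was sequenced from 2 established uterine leiomyosarcoma (uLMS) lines. SK-LMS-1 derives from a metastasis in the vulva. The other line, SK-UT-1B, derives from a primary tumor and is described as epithelial-like in shape. Both are labelled wild type in genotype and each is 1 line, and cells were exposed for 72 h to DMSO vehicle or to drug at the IC30, the concentration that lowers viability by 30%. SK-UT-1B had 2 DMSO libraries and 2 libraries after the combination of MK-0752, a gamma secretase inhibitor that blocks Notch activation, with gemcitabine, a nucleoside analog, and docetaxel, a taxane. SK-LMS-1 had 2 DMSO libraries numbered as set 2, 2 libraries of set 2 after MK-0752 alone, 2 DMSO libraries of set 4, and 2 libraries of set 4 after the combination, in which MK-0752 was given at a lower dose than alone. In SK-UT-1B the DMSO libraries were numbered 4 and the combination libraries 3, so set and treatment cannot be told apart there, and nothing in the labels says that libraries of a group came from separate cultures, so p-values measure only the spread between these libraries. Total counts were between 25250057 and 40709885 per library, and levels are given as CPM, counts scaled to library size by TMM.

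Endothelins are short secreted peptides with strong vasoconstrictor activity. A furin-type protease cuts the precursor to big endothelin, and the membrane metallopeptidases ECE1 and ECE2 release the active peptide. The receptors are coupled to G proteins: ETA, from EDNRA, drives contraction of smooth muscle and prefers the peptides of EDN1 and EDN2, while ETB, from EDNRB, binds all of the endothelins about equally and also clears them. In the myometrium, endothelin raises contractility, and EDN3 with EDNRB is best known for guiding neural crest cells to the gut and skin.

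The stretches that encode the mature peptides are shown because EDN3 was counted in SK-UT-1B and in no SK-LMS-1 library. For EDN1 and EDN2 no difference between the lines is shown. Each is 63 bases long, lies in exon 2 of the 5 exons of its transcript, and was read from the reference genome (hg38, GENCODE v44): EDN1 at chr6:12292433-12292495 on the plus strand, EDN2 at chr1:41484061-41484123 on the minus strand, and EDN3 at chr20:59301646-59301708 on the plus strand. They are written 5′ to 3′ on the coding strand, and capitals mark the codons whose amino acid is not the same in all 3 genes.
EDN1: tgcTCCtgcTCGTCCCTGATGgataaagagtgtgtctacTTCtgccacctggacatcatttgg
EDN2: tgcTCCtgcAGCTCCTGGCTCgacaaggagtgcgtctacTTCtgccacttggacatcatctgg
EDN3: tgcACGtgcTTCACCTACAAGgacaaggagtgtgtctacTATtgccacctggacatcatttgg
Of 21 codons, 15 encoded the same amino acid in all 3 genes. EDN1 and EDN2 shared the amino acid at 19 codons and 51 bases, whereas EDN3 shared it at 15 codons with either gene, with 50 bases identical to EDN1 and 48 to EDN2.

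EDN3 was the leading ligand transcript of SK-UT-1B, with EDN2 far below it, and neither gene had a single count in any of the 8 SK-LMS-1 libraries. EDN1 had counts only in SK-LMS-1, at traces and not in every library, so few that its absence from SK-UT-1B is not shown. On the receptor side, EDNRB was counted in all SK-LMS-1 libraries and in no SK-UT-1B library, and EDNRA was counted at low levels in both lines.

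**Figure D1:**
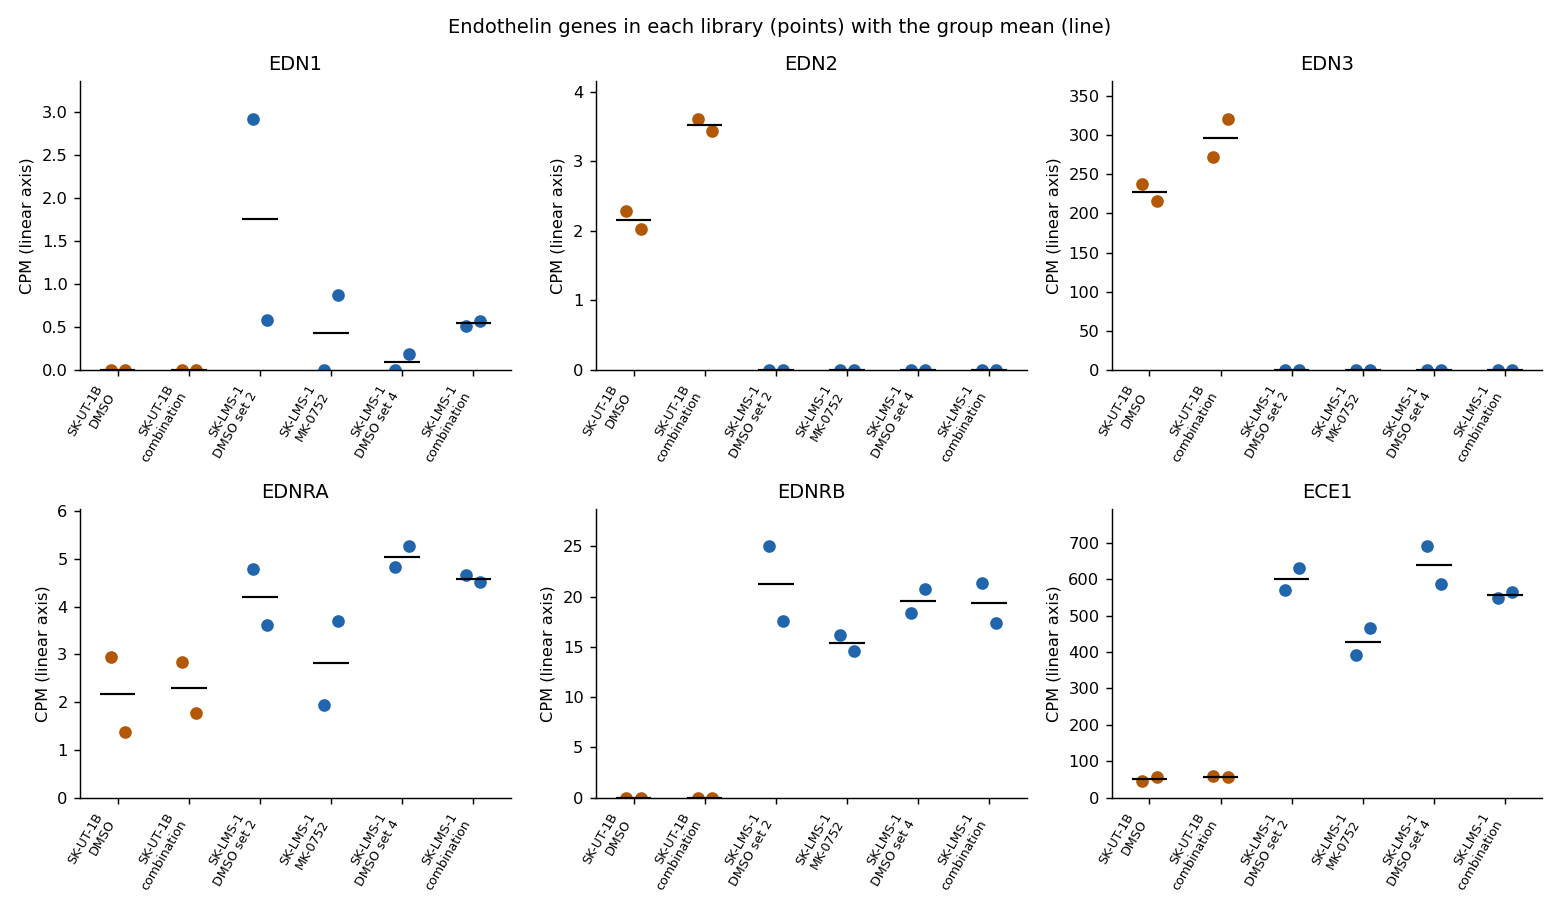
CPM (linear axes, 1 panel a gene) of EDN1, EDN2, EDN3, EDNRA, EDNRB, and ECE1 in the 6 groups, with 1 point for each library and a line at the mean of the 2 libraries (orange, SK-UT-1B; blue, SK-LMS-1). EDN2 and EDN3 lie at 0 in every SK-LMS-1 library, EDN1 and EDNRB lie at 0 in every SK-UT-1B library, and ECE1 lies between 391 and 690 CPM in SK-LMS-1 and between 45.5 and 58.6 CPM in SK-UT-1B.

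Counts of low genes were less precise than their size implies. Among genes for which the other libraries of the line lead to an expected 5 to 500 counts, 17.4% to 34.6% were at 0 in a given library, where Poisson sampling would give 0.0212% to 0.0386%. If every captured molecule was read equally often, this equals 10.8 to 27.7 reads per molecule. By that estimate EDN1 rested on 1.21 molecules per SK-LMS-1 library on average, EDNRA on 7.67 in SK-LMS-1 and 3.93 in SK-UT-1B, and EDN2 on 5.11 in SK-UT-1B. EDNRB rested on 35.4 molecules in SK-LMS-1, EDN3 on 465 in SK-UT-1B, and ECE1 on 1030 in SK-LMS-1 and 99.2 in SK-UT-1B, so ECE1 and EDN3 were the genes with the most reliable values. A count of 0 is therefore read against a limit of 3 estimated molecules per library, a limit chosen after the data were seen, and not against 3 reads.

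EDN3 (ENSG00000124205, chr20:59300443-59325992, plus strand) had 238 and 216 CPM in the SK-UT-1B libraries with DMSO and 272 and 321 CPM in those with the combination. These were 6889, 8137, 9971, and 9033 counts, and the gene had 0 counts in each SK-LMS-1 library. The lines therefore lay far apart without overlap. With 3 molecules as the limit of a 0, SK-LMS-1 was at least 102-fold lower in EDN3 with vehicle, and with the combination the bound was at least 243-fold lower.

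EDN2 (ENSG00000127129, chr1:41478775-41484683, minus strand) had 66 and 76 counts in the SK-UT-1B libraries with DMSO and 132 and 97 counts in those with the combination. In CPM these were 2.28 and 2.02 with vehicle and 3.61 and 3.44 with drug. The gene was again at 0 in all 8 SK-LMS-1 libraries. By the estimate above, EDN2 rested on 3.7 molecules per library with vehicle and 6.51 with the combination, which is so close to the limit of a 0 that no fold between the lines is given.

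EDN1 (ENSG00000078401, chr6:12290361-12297194, plus strand), the main endothelin of blood vessels, was counted 102 and 16 times in the SK-LMS-1 libraries of DMSO set 2, 0 and 7 times in DMSO set 4, 0 and 32 times with MK-0752, and 17 and 14 times with the combination. The highest library stood at 2.92 CPM, the median of the 8 was 0.543 CPM, and 2 of the 8 were at 0. All 4 SK-UT-1B libraries were at 0, where 3 estimated molecules correspond to between 1.37 and 2.3 CPM, a level that 1 of the 8 SK-LMS-1 libraries exceeded. Because 1 DMSO library of SK-LMS-1 was also at 0, the lines overlapped after DMSO, while both SK-LMS-1 libraries lay above SK-UT-1B after the combination, at an estimated 1.38 molecules per library. No fold is given, since that is under the limit of a 0.

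EDNRB (ENSG00000136160, chr13:77895481-77975529, minus strand) stood in SK-LMS-1 at 25 and 17.6 CPM for DMSO set 2, 18.4 and 20.8 CPM for DMSO set 4, 16.2 and 14.6 CPM with MK-0752, and 21.4 and 17.4 CPM with the combination. These values rest on 423 to 873 counts in each library, and all 4 SK-UT-1B libraries had 0 counts. With 3 molecules as the limit of a 0, SK-LMS-1 was at least 11.2-fold higher in EDNRB with vehicle, and with the combination the bound was at least 11.5-fold higher. A long noncoding gene on the same strand, RP11-318G21.4, shares 124 of the 5608 exon bases of EDNRB, and it had 0 to 76 counts in SK-LMS-1 and 0 in SK-UT-1B. OBI1-AS1, on the opposite strand with 80 shared bases, had at most 16 counts in any library, and the strand setting of the counts is not given in the sources used here.

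EDNRA (ENSG00000151617, chr4:147480917-147544954, plus strand) had 2.94 and 1.38 CPM in the SK-UT-1B libraries with DMSO and 2.84 and 1.77 CPM in those with the combination. The SK-LMS-1 libraries held 4.79 and 3.62 CPM for DMSO set 2, 4.83 and 5.26 CPM for DMSO set 4, 1.94 and 3.7 CPM with MK-0752, and 4.66 and 4.51 CPM with the combination. After DMSO the lines did not overlap, with a log2FC (SK-LMS-1 minus SK-UT-1B) of 1.09 ± 0.77 (SE, 4 and 2 libraries). After the combination they did not overlap either, and the log2FC was 0.99 ± 0.853 (2 and 2 libraries). Of all tested genes, 51.8% and 64.6% likewise did not overlap. With single libraries left out, the log2FC ran from 0.65 to 1.7 after DMSO and from 0.69 to 1.34 after the combination. The library with 1.94 CPM after MK-0752 lay within the range of SK-UT-1B, so over all libraries the lines overlapped.

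ECE1 (ENSG00000117298, chr1:21217247-21345572, minus strand) was counted in every library of both lines. The SK-LMS-1 libraries held 571 and 630 CPM for DMSO set 2, 690 and 587 CPM for DMSO set 4, 391 and 465 CPM with MK-0752, and 549 and 564 CPM with the combination. The SK-UT-1B libraries held far less, 45.5 and 57.7 CPM with DMSO and 58.6 and 55.4 CPM with the combination. The difference between the lines was 12-fold after DMSO (log2FC 3.58 ± 0.161, SE) and 9.75-fold after the combination (log2FC 3.29 ± 0.167, SE), and the lowest SK-LMS-1 library lay above the highest SK-UT-1B library. Of all tested genes, 51.8% did not overlap between the lines with DMSO and 64.6% with the combination. Its antisense gene ECE1-AS1 shares 240 exon bases and had at most 20 counts.

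ECE2 (chr3:184276011-184293031, plus strand), which encodes the second converting enzyme, had 0 counts in all 12 libraries. ECE2 lies within the readthrough gene EEF1AKMT4-ECE2 on the same strand and shares 2965 of its 4729 exon bases with it, and STAR's gene counts leave out reads that fall on more than 1 gene. Of its exon bases, 1764 are not shared on that strand, and these gave no counted read either. The 0 is therefore a value for the unshared bases only, and the shared bases are not measured by it. The readthrough gene also had 0 counts in all 12 libraries, while EEF1AKMT4 had 51 to 161 counts in SK-UT-1B and 0 to 71 in SK-LMS-1.

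As a description, 4 of the 6 tested genes lay past the size and adjusted p thresholds between the lines with either treatment. EDNRB and ECE1 were higher and EDN3 was lower in SK-LMS-1. EDN2 also passed in the fit, but no direction is given for it. Its 2.15 CPM in SK-UT-1B with DMSO lay within the limit of a 0 in SK-LMS-1 (0.973 to 3.21 CPM). Over all 21114 genes, 31.1% lay past both thresholds with DMSO (17% higher and 14.1% lower in SK-LMS-1). With the combination, 25.4% did so (15.6% higher and 9.88% lower). Since these differences were known when the genes were chosen, nothing is read from this count.

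Genes were compared with each other only after division by exon length, as CPM per kb of exon. In SK-UT-1B the order was EDN3 at 79.5 ± 13.8 (SD, n = 4), ECE1 at 7.43 ± 0.824, EDN2 at 1.72 ± 0.488, and EDNRA at 0.527 ± 0.183, and these 4 ranges did not overlap. In SK-LMS-1 the order was ECE1 at 76 ± 12.7 (SD, n = 8), EDNRB at 3.37 ± 0.589, EDNRA at 0.982 ± 0.25, and EDN1 at 0.346 ± 0.466. EDNRA and EDN1 overlapped, since the highest EDN1 library reached 1.44 and the lowest EDNRA library 0.457, and the ranges of the other neighbours did not. ECE1 in SK-LMS-1 and EDN3 in SK-UT-1B thus had the highest levels per length, and both receptor genes stood well below them.

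**Figure D2:**
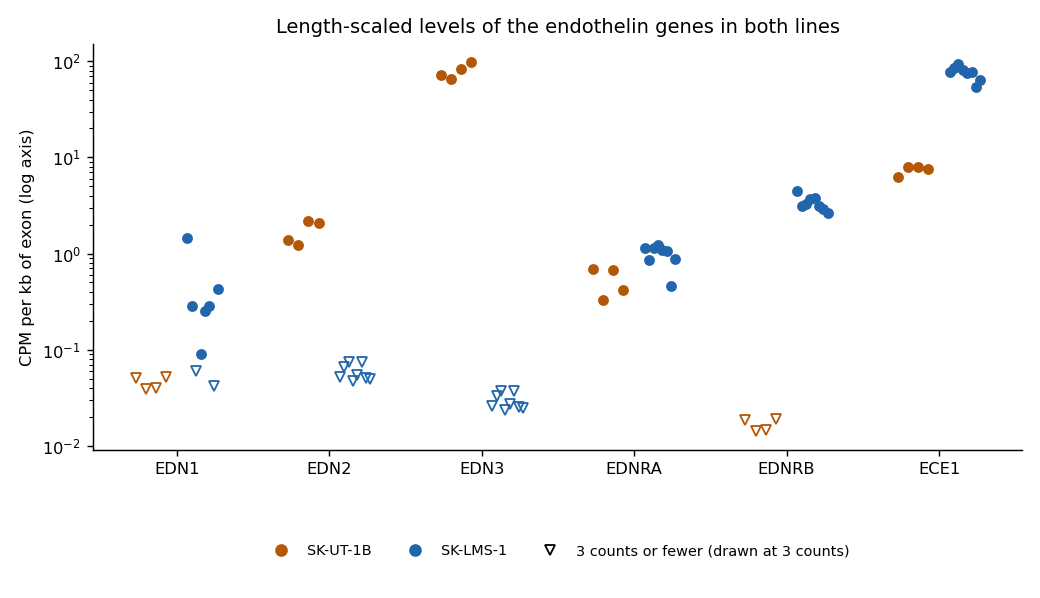
CPM per kb of exon (log axis) of 6 endothelin genes in the 4 SK-UT-1B libraries (orange) and the 8 SK-LMS-1 libraries (blue), 1 symbol for each library. Open triangles mark libraries with 3 counts or fewer, drawn at the value of 3 counts (below the limit of 3 estimated molecules used in the text), and show EDN1 and EDNRB in SK-UT-1B and EDN2, EDN3, and 2 libraries of EDN1 in SK-LMS-1.

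The promoters of EDN1 and EDNRB are shown because they held letters of the motifs searched, which included RBPJ, the nuclear partner of Notch, on which MK-0752 acts. The windows hold bases before the start site of RefSeq (GRCh38.p14), without bases of any annotated exon: 250 bases for EDN1 (chr6:12290111-12290360, plus strand) and 175 bases for EDNRB (chr13:77918832-77919006, minus strand), whose other 75 bases are exonic. They are written 5′ to 3′ on the strand of the gene, with capitals for motif letters found on either strand.
EDN1: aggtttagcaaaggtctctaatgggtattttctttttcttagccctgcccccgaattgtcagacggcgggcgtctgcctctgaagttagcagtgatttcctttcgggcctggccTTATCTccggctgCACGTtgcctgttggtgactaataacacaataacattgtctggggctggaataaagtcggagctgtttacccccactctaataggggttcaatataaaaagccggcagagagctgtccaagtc
EDNRB: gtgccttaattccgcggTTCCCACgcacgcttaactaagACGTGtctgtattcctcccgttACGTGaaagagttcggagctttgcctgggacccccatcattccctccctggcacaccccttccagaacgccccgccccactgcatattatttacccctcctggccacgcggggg
The letters searched were TGANTCA for AP-1, GTGGGAA for RBPJ, CACGTG for an E-box, AGATAA for GATA factors, and ACGTG for hypoxia-inducible factors, the last of which overlaps with the E-box. The EDN1 window held AGATAA at positions -136 to -131 and ACGTG at -123 to -119, both on the minus strand. The EDNRB window held GTGGGAA at -158 to -152 on the minus strand and ACGTG at -136 to -132 and at -114 to -110 on the plus strand. The 250 bases before the start sites searched for EDN2, EDNRA, and ECE1 held none of these letters. A single start site was searched for each gene, and any other starts were not. The promoters of EDN3 and ECE2 were not analysed here. Of 35116 promoter windows of 250 bases, 9.17% held AGATAA, 5.43% held GTGGGAA, and 18.5% held ACGTG, and a match describes the sequence only.

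With the combination in SK-UT-1B, 0 of the 4 endothelin genes counted in the line (EDN2, EDN3, EDNRA, and ECE1) were differentially expressed by edgeR's quasi-likelihood test (a log2FC of 1 or more in size with an adjusted p under 0.05), while 0.559% of all tested genes were. EDN1 and EDNRB, at 0 in every library of the line, had no value to test, and the shares over all genes also include genes at 0 in the line. That share depended on the setting of the fit. With no filter beyond 1 count, 420 of 30051 tested genes passed in place of 118 of 21114, while the endothelin genes stayed at 0. DESeq2 also gave 0 of them, and 0 had an unadjusted p under 0.05, beside 10.5% of all genes. EDN3 and EDN2 were each higher in both combination libraries than in both DMSO libraries, as were 16.7% of all genes. For EDN3 the means were 297 ± 34 CPM after the combination and 227 ± 16 CPM after DMSO (SD, n = 2), with a log2FC of 0.38 ± 0.191 (SE) and an edgeR adjusted p of 0.52. For EDN2 the means were 3.52 ± 0.116 and 2.15 ± 0.19 CPM, with a log2FC of 0.71 ± 1.96 and an edgeR adjusted p of 1. EDNRA (log2FC 0.10 ± 0.849) and ECE1 (log2FC 0.14 ± 0.154, edgeR adjusted p = 0.912) overlapped between the treatments.

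With MK-0752 alone in SK-LMS-1, 0 of the 4 genes counted in the line (EDN1, EDNRA, EDNRB, and ECE1) were differentially expressed by edgeR or by DESeq2, beside 0.251% of all tested genes in edgeR. Without adjustment, ECE1 was the 1 gene of them with p under 0.05, as were 6.41% of all genes. ECE1 had the clearest shift of the endothelin genes in this comparison: both MK-0752 libraries (391 and 465 CPM) lay below both libraries of DMSO set 2 (571 and 630 CPM), with a log2FC of -0.49 ± 0.153 (SE). By edgeR its unadjusted p was 0.00472 and its adjusted p 0.339, so it did not pass, and 17.5% of all genes were likewise lower without overlap. EDNRB was also lower without overlap, with a log2FC of -0.46 ± 0.394 and an edgeR adjusted p of 0.862. With single libraries left out, the log2FC of EDNRB ran from -0.71 to -0.18 and that of EDNRA from -1.12 to -0.19. EDNRA (log2FC -0.58 ± 0.847) and EDN1 (log2FC -2.0 ± 2.88) overlapped with DMSO set 2, and both had an edgeR adjusted p of 1.

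With the combination in SK-LMS-1, 0 of the same 4 genes were differentially expressed by edgeR or by DESeq2, beside 0.0237% of all tested genes in edgeR. Without adjustment, 0 of them had p under 0.05, beside 4.33% of all genes. ECE1 was lower in both combination libraries than in DMSO set 4, with a log2FC of -0.20 ± 0.153 (SE) and an edgeR adjusted p of 0.911. EDNRA also lay lower without overlap (log2FC -0.14 ± 0.843, edgeR adjusted p = 1), as did 11.4% of all genes. EDNRB differed by a log2FC of -0.02 ± 0.394 and overlapped. EDN1 was higher without overlap (log2FC 2.50 ± 2.95, edgeR adjusted p = 1), as were 21% of all genes, but with all 4 DMSO libraries as the control its log2FC was -0.76, so its direction depended on the control libraries.

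**Figure D3:**
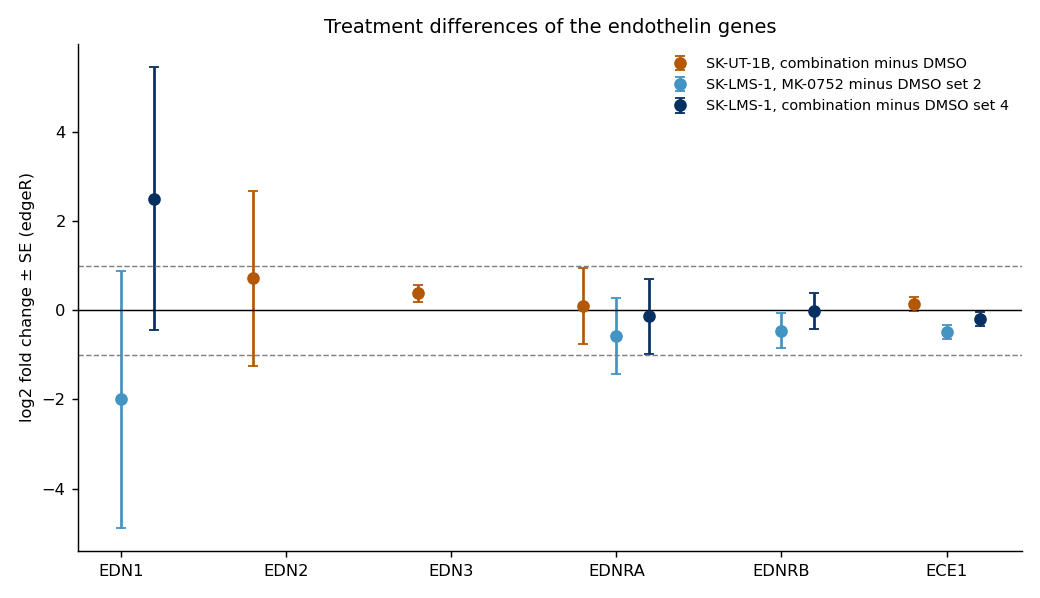
Log2 fold change (linear axis, edgeR) with its SE for the 3 treatment comparisons, each with 2 libraries a group, for the endothelin genes counted in the line, and dashed lines at 1 and -1. All points for EDN3, EDNRA, EDNRB, and ECE1 lie between the dashed lines, and the bars of EDN1 and EDN2 are the widest, with SEs of 1.96 to 2.95.

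The comparison of the effects themselves gave 0 differentially expressed endothelin genes by edgeR or DESeq2, and 0 with an unadjusted p under 0.05. Only EDNRA and ECE1 could be compared between the lines, and the combination effect of SK-UT-1B minus that of SK-LMS-1 was 0.34 ± 0.217 (log2, SE) for ECE1, with an edgeR adjusted p of 0.752, and 0.24 ± 1.2 for EDNRA, with an adjusted p of 1. Over all genes 0.232% passed, and 7.67% had an unadjusted p under 0.05. In SK-LMS-1, the MK-0752 effect minus the combination effect was -0.29 ± 0.216 for ECE1, -0.45 ± 0.557 for EDNRB, -0.44 ± 1.19 for EDNRA, and -4.50 ± 4.12 for EDN1, each with an edgeR adjusted p of 1, beside 0.0379% of all genes that passed and 5.18% with an unadjusted p under 0.05. The doses of MK-0752 differed between those treatments, so no comparison of the drugs at matched dose is possible. Each drug of the combination was also given at a lower concentration in SK-UT-1B than in SK-LMS-1. The effects of the lines are therefore not compared at matched dose either.

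Between the DMSO sets of SK-LMS-1, 0 of the 4 genes counted in the line and 0 of all 21114 genes (0%) passed in edgeR, with 0 of the 4 and 1197 of all genes (5.67%) at an unadjusted p under 0.05, and 0 of the 4 and 33 of all genes passing in DESeq2. ECE1 differed by a log2FC of 0.09 ± 0.153 (set 4 minus set 2), EDNRB by -0.12 ± 0.393, and EDNRA by 0.26 ± 0.844, all with an edgeR adjusted p of 1. EDN1 differed most, by -4.18 ± 3.17 with an edgeR adjusted p of 0.797, and was lower in both set 4 libraries than in both set 2 libraries, as were 17.5% of all genes, while EDNRA was higher in both, as were 12%. For ECE1 the shift after MK-0752 was larger than the difference between vehicle sets. For EDN1 the fitted difference between vehicle sets was larger than either treatment difference, but the sizes overlapped with single libraries left out. Between the sets EDN1 then ran from -8.8 to -2.59. It ran from -8.81 to -0.41 after MK-0752 and from 1.56 to 7.11 after the combination, so no order is read from EDN1.

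Genes that process or break down endothelins besides the converting enzymes were measured as a list of 13, of which 10 were tested. Between the lines after DMSO, 4 were higher in SK-LMS-1 and 2 in SK-UT-1B, with a median log2FC of 1.73 beside 0 for all genes, as a description. CTSA, the lysosomal carboxypeptidase cathepsin A that degrades endothelin, had a median of 604 CPM in SK-LMS-1 and 93.3 CPM in SK-UT-1B. MME, named after its values were seen, encodes neprilysin, which degrades endothelins, and had a median of 311 CPM in SK-LMS-1 and at most 0.902 CPM in any SK-UT-1B library. ECEL1, a relative of the converting enzymes named likewise, showed the opposite pattern, with 33.8 to 49.5 CPM in SK-UT-1B and 0 counts in every SK-LMS-1 library. FURIN, named likewise as the protease of the first cleavage, had a median of 113 CPM in SK-LMS-1 and 30.9 CPM in SK-UT-1B. No tested gene of this list passed both thresholds in a treatment comparison.

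MMP2, a gelatinase that can also cleave big endothelin, was the other gene of this list taken by its mean level. It had 400 and 440 CPM in DMSO set 2 and 707 and 741 CPM after MK-0752 in SK-LMS-1, and 27.3 and 25 CPM with DMSO and 44.1 and 42.6 CPM with the combination in SK-UT-1B. MMP2 was thus higher in both treated groups without overlap, as were 16.9% and 16.7% of all genes, although its size stayed under the fold threshold. The log2FC was 0.79 ± 0.135 (SE, edgeR adjusted p = 0.0106) in the former and 0.73 ± 0.138 (edgeR adjusted p = 0.0135) in the latter comparison, in which 0.365% and 0.715% of all genes had an adjusted p under 0.05. The adjusted p was 0.216 without DMSO set 2 library 1 and 0.0689 without MK-0752 library 3, and in SK-UT-1B it was 0.0775 without DMSO library 2 and 0.618 in a fit of the 4 SK-UT-1B libraries alone. In SK-LMS-1 after the combination, MMP2 had 561 and 559 CPM, beside 405 and 431 CPM in DMSO set 4, with a log2FC of 0.42 ± 0.135 and an edgeR adjusted p of 0.907.

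The list of 36 genes for signalling from the receptors, all of which were tested, held G proteins, phospholipase C and protein kinase C genes, arrestins, receptor kinases, and RGS genes. RGS2, whose product shortens signalling through Gq, the G protein by which endothelin receptors raise calcium, was the only gene of the list that passed in a treatment comparison. It had 167 and 170 CPM in DMSO set 2 and 81.3 and 71.1 CPM after MK-0752 in SK-LMS-1. RGS2 thus fell by 1.14 on the log2 scale (SE 0.209, edgeR adjusted p = 0.0148), and the groups did not overlap. Of all genes, 0.194% passed in this direction. With DMSO set 4 at 164 and 176 CPM and the combination at 168 and 163 CPM, the combination difference was -0.04 ± 0.206 (log2), and the MK-0752 effect minus the combination effect was -1.11 ± 0.292 with an edgeR adjusted p of 0.466. That adjusted p ran from 0.00526 to 0.626 over the alternatives, so the difference between both effects passed only in some of them.

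Between the lines after DMSO, 17 genes of the signalling list were higher in SK-LMS-1 and 5 in SK-UT-1B, and the median log2FC of the list was 0.96. Of the genes named after their values were seen, PLCB1 and PLCB4, the phospholipase C enzymes that act after Gq, had medians of 62.4 and 52.7 CPM in SK-LMS-1, while SK-UT-1B had at most 1.59 CPM of PLCB1 and 0 counts of PLCB4. MYLK, the kinase that starts smooth muscle contraction, had a median of 522 CPM in SK-LMS-1 and 3.21 CPM in SK-UT-1B. In the other direction, ARRB1, a beta arrestin that silences receptors, had a median of 64.6 CPM in SK-UT-1B and 0.838 CPM in SK-LMS-1, and PLCB3 had 126 and 34.8 CPM.

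**Figure D4:**
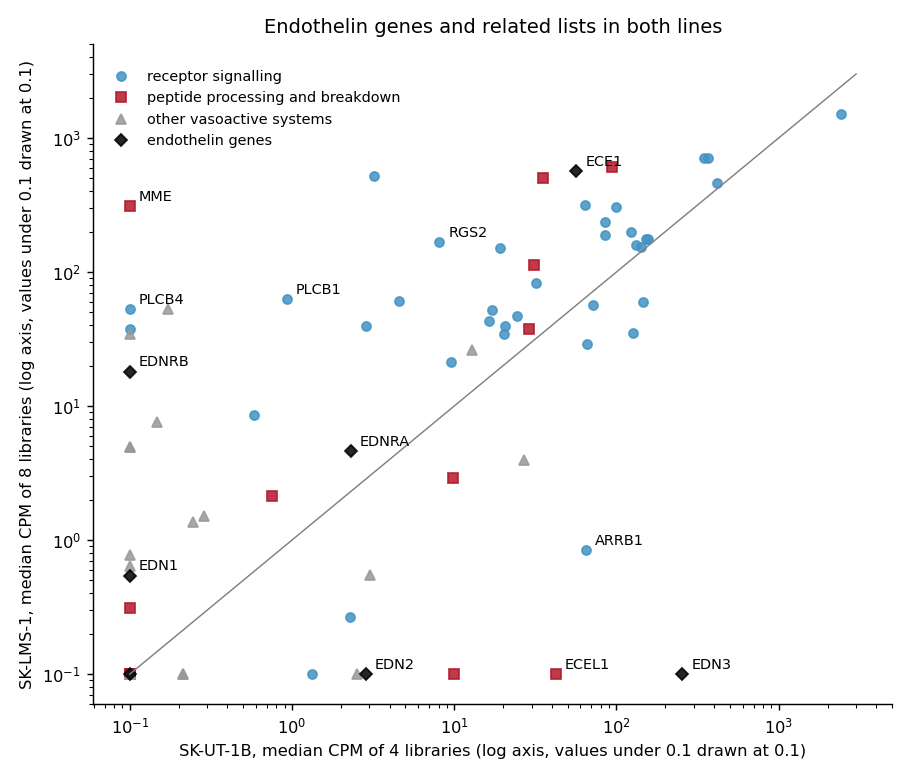
Median CPM in 8 SK-LMS-1 libraries against the median in 4 SK-UT-1B libraries (log axes, values under 0.1 drawn at 0.1) for the endothelin genes, the signalling and processing lists, and other vasoactive systems, 1 symbol a gene, with a line of equal level. MME, PLCB4, and EDNRB lie on the left edge, EDN3, EDN2, and ECEL1 on the lower edge, and ECE1 and RGS2 above the line.

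The list of 22 genes that act on EDN1 transcription had 9 genes higher in SK-LMS-1 and 5 higher in SK-UT-1B with DMSO, and none passed in a treatment comparison. HIF1A, the oxygen-regulated subunit of hypoxia-inducible factor, had medians of 668 and 199 CPM in SK-LMS-1 and SK-UT-1B. FOSL1, a subunit of AP-1, had medians of 486 and 31 CPM. Of 13 neural crest and melanocyte genes that act with EDN3 and EDNRB in development, 10 were tested, and SOX10 and TYR had 0 counts in all 12 libraries. In this list KITLG, the ligand of KIT, had medians of 72.7 CPM in SK-LMS-1 and 150 CPM in SK-UT-1B, and ZEB2, a transcription factor of neural crest, had medians of 103 and 0 CPM. Between the lines with DMSO, 5 genes of this list were higher in SK-LMS-1 and 3 lower, and none passed in a treatment comparison.

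Of 26 genes of other vasoactive systems, 16 were tested, of which 6 were higher in SK-LMS-1 and 2 in SK-UT-1B with DMSO, and none passed in a treatment comparison. All counts between the lines are a description, beside the 31.1% over all genes. CALCRL, the receptor subunit for adrenomedullin, had medians of 53.1 CPM in SK-LMS-1 and 0.172 CPM in SK-UT-1B. ADM, which encodes adrenomedullin, a vasodilator, had medians of 26.1 and 12.9 CPM. In SK-UT-1B the means of ADM were 6.31 CPM with DMSO and 17.7 CPM with the combination. Its log2FC there was 1.48 ± 0.375 (SE) with an edgeR adjusted p of 0.0846, so it did not pass. In SK-LMS-1 the means were 26 CPM in DMSO set 2, 41.2 CPM in DMSO set 4, and 24.4 CPM with the combination. The log2FC of ADM between the lines was 2.37 ± 0.358 (SE) with DMSO and 0.47 ± 0.365 with the combination. No gene of this list passed in the difference between the lines' combination effects. AGTR1, the main angiotensin receptor gene, named after its values were seen, had 0.201 to 5.89 CPM in SK-LMS-1 and 0 counts in SK-UT-1B.

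The markers of cell types were read beside these results. The 9 smooth muscle markers summed to 538 to 621 CPM in SK-LMS-1 and 85 to 124 CPM in SK-UT-1B, mostly CALD1 and SMTN in both lines. MYH11 had at most 5 counts in any library. DES went the other way, at 0 in SK-LMS-1 and 1.37 to 9.76 CPM in SK-UT-1B. The 6 epithelial markers summed to 169 to 266 CPM in SK-LMS-1, mostly KRT8 and KRT18, and to 0.292 to 1.14 CPM in SK-UT-1B, where KRT8 had 0 counts although the line is described as epithelial-like, and CDH1 and EPCAM had medians of at most 0.109 CPM in either line. Of the 6 endothelial markers, which are relevant because endothelium is the main source of EDN1, the sums were 2.98 to 9.4 CPM in SK-LMS-1 and 1.28 to 2.3 CPM in SK-UT-1B, with KDR at 0 in all libraries. The 5 leukocyte markers summed to at most 2.47 CPM. The part of these markers in the endothelin levels was not tested, and in bulk RNA fewer cells that use a gene and less RNA of it per cell cannot be told apart.

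The genes most like each endothelin gene over the 12 libraries were sought by Pearson's r of log2 CPM, in genes whose mean reached 1 CPM. For EDN3 these were PAX1, HORMAD1, and WNK2, for EDN2 VANGL2, KRT222, and ECHDC3, for EDNRB LINC02582, ADAMTS1, and DKK1, and for ECE1 PRSS2, SVEP1, and H1-5. These correlations mostly restate the line difference, since 898 genes had an r over 0.95 with EDN3, 831 with EDN2, 1959 with EDNRB, and 1801 with ECE1. After the mean of each line had been subtracted, the closest gene was EYS for EDNRB (r = 0.960) and NOP56 for ECE1 (r = 0.961). Each such r is the highest of 14371 genes, and for EDN2, EDN3, and EDNRB a centred r rests on the libraries of the 1 line that had counts, so none is given for EDN2 and EDN3 with 4 libraries. For EDNRA the closest genes before centring were ZNF580 (r = 0.920) and EPHA2 (r = 0.919), for EDN1 they were PCDHA3 (r = 0.901), PRKAR2B (r = 0.900), and SLC25A43 (r = 0.899), and 0 genes were over 0.95 for either.

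Genes within 1000 kb of each endothelin gene were compared by position, beside the 31.1% of all genes past the thresholds between the lines. Higher and lower here mean past those thresholds in the fit, which takes no account of the limit of a 0. Near EDN3, 25 genes were tested, of which 11 passed as higher in SK-LMS-1 and 3 as lower after DMSO (56%). The higher include RP5-907D15.3 (0.964 CPM), GNAS-AS1 (1.51 CPM), and RP1-309F20.3 (1.52 CPM), all at 0 CPM in SK-UT-1B and under or near its limit. The lower include ZNF831 and PHACTR3, so the share rests partly on genes without a readable direction. The nearest tested genes on either side of EDN3 had low counts, with distances taken between start sites. ZNF831, at -177.1 kb, had means of 0 CPM in SK-LMS-1 and 3.5 CPM in SK-UT-1B. PHACTR3, at 277.1 kb, had 0 and 1.78 CPM. With 3 estimated molecules worth 0.973 to 3.21 CPM in the SK-LMS-1 libraries, these values lie too close to the limit of a 0 for a direction to be given. Of the 8 tested genes near EDNRB, 1 passed as higher in SK-LMS-1, the overlapping RP11-318G21.4, and 3 as lower (50%). RP11-318G21.4 had means of 1.04 CPM in SK-LMS-1 and 0 CPM in SK-UT-1B. That is under the limit of a 0 in SK-UT-1B (1.37 to 2.3 CPM), so no direction is given for it. Of the 6 tested genes near EDN1, 5 were higher in SK-LMS-1 (83.3%), including PHACTR1 at means of 13.2 and 0.252 CPM. The share was 29.2% of 24 genes near EDN2, 30% of 10 near EDNRA, 43.5% of 23 near ECE1, and 24.1% of 29 near ECE2, and these few neighbouring genes are not independent of each other.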

How the data were processed

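RNA sequencing of 12 libraries was used. The authors deposited a table of STAR gene counts that had not been normalized. The submitters' processing notes name Trim Galore 0.3.7, STAR 2.7.9a, and hg38, and the methods name SortMeRNA for ribosomal RNA. The annotation is not given in the sources used here, so positions and lengths come from GENCODE v44 on hg38, which held 60463 of 60649 identifiers. Counts were fitted in edgeR 4.0.16 (R 4.3.3) with filterByExpr, TMM, and a robust quasi-likelihood model over 6 groups of 2, and p-values were Benjamini-Hochberg adjusted over 21114 genes. A gene passed when its log2FC was 1 or more in size and its adjusted p was under 0.05.

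The endothelin genes and the gene lists were chosen with earlier results of these data known. Beside the endothelin genes, the text names every gene of a list that passed in a treatment comparison, or otherwise the 2 genes with the highest mean CPM, and the 3 genes most like each endothelin gene, of which 1 is not reported here. DMSO controls of SK-LMS-1 were taken by set number. Total counts of 25250057 to 40709885 make 3 counts equal to 0.0777 to 0.123 CPM, which covers counting error of reads only. A limit of 3 estimated molecules, added after the data were seen, was used for folds against a line at 0. Alternatives were DESeq2 1.42.0, DESeq2 size factors in edgeR, a filter on a mean of 50 counts, no filter beyond 1 count, only the libraries of a comparison, all 4 DMSO libraries as the control, a single DMSO set in the line comparison, a replicate block, and each library left out.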

Additional observations from a re-analysis of the deposited data

How the results depend on the processing

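Of the endothelin genes counted in a line, 0 passed in any treatment comparison under any alternative run. Of 301 refitted log2FC of endothelin genes, 290 kept their direction and their side of the thresholds, and 11 changed direction, none of which had passed. The 301 include refits of EDNRA and ECE1 between the lines, all of which kept both. Those support nothing, since the line difference was known when the genes were chosen. EDN1 after the combination in SK-LMS-1 turned to -0.76 with all 4 DMSO libraries as the control. Leaving out libraries, EDNRA ran from -0.35 to 0.72 after the combination in SK-UT-1B and from -0.21 to 0.85 in the difference between the lines' combination effects, ECE1 from -0.04 to 0.33 in SK-UT-1B and from -0.03 to 0.18 between the DMSO sets, and EDNRB from -0.17 to 0.14 after the combination in SK-LMS-1 and from -0.37 to 0.16 between the DMSO sets. ECE1 after MK-0752 kept its direction in all 11 alternatives, from -0.62 to -0.37, with adjusted p from 0.0845 to 1, and EDN3 after the combination kept it in all 10, from 0.19 to 0.47, with adjusted p from 0.397 to 1. RGS2 after MK-0752 passed in all 11 alternatives, with adjusted p from 1.02e-05 to 0.0452.

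Compared groups shared at most 2 replicate numbers, and the numbers were not treated as pairing the libraries. The correlation of the deviations of same-numbered libraries was -0.0118 for DMSO set 4 and the combination in SK-LMS-1 (2 shared numbers), -0.00841 for DMSO set 2 and MK-0752 (1 shared number), -0.0386 for DMSO and the combination in SK-UT-1B (1), and -0.0106 for the DMSO sets (1). With a replicate block, EDNRA after the combination in SK-UT-1B was -0.01, and the genes passing over all genes went from 118 to 186 there, from 8 to 15 in the MK-0752 effect minus the combination effect, and from 0 to 5 between the DMSO sets. The counts over all genes, which are the background of the report, depended on the setting. For the SK-UT-1B combination, MK-0752, and the SK-LMS-1 combination, edgeR gave 118, 53, and 5 genes, DESeq2 gave 376, 131, and 36, no filter beyond 1 count gave 420, 175, and 73, a mean of 50 counts gave 81, 35, and 1, and the libraries of the comparison alone gave 0, 99, and 0. In the same order of settings, the difference between the lines' combination effects gave 49, 148, 303, 24, and 20 genes, the MK-0752 effect minus the combination effect gave 8, 40, 89, 3, and 27, and the DMSO sets gave 0, 33, 76, 0, and 0. Leaving out any 1 library also changed the filter, so that 24346 to 24756 genes were tested in place of 21114. The lone library was then assumed to vary like the other groups. Genes passing in those fits are therefore not set beside the other counts. The cause of these differences was not tested. Precision was lowest for EDN1, EDN2, and EDNRA, for which a log2FC of 1 was within 2 SE in each treatment comparison. With 3 reads in place of 3 estimated molecules as the limit of a 0, the bounds between the lines after DMSO would be 2310-fold for EDN3 and 223-fold for EDNRB, which counts reads of one molecule as independent.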
